A study of Mus musculus with 12 samples.

Results

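Cysteine and glutathione metabolism was followed through 10 genes, Cth, Cbs, Slc7a11, Gclc, Gclm, Gss, Gpx4, Prdx6, Gstm1 and Gstm5, out of 41388 gene identifiers in the count files. The genes were chosen by name, with results of these data known. Which values led to the choice is not recorded, so their counts and tests are given as descriptions of these libraries and not as support for the choice.

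Glutathione is a tripeptide of glutamate, cysteine and glycine and is the main small thiol of the cell. Cysteine, the limiting building block, is either made from methionine by transsulfuration or taken up as cystine. In brain, astrocytes hold much of the glutathione and release part of it, from which neurons obtain cysteine for their own synthesis.

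The mice were C57/Bl6, 21 days old (postnatal day 21), and carried Aldh1L1::RPL10a-eGFP, a fluorescent tag on the large-subunit ribosomal protein Rpl10a driven by regulatory sequence of Aldh1l1, a gene used to mark astrocytes. Translating ribosome affinity purification (TRAP) uses the tag to pull such ribosomes, with the messages bound to them, from homogenized tissue, and RNA was then sequenced. The 12 libraries formed 4 groups of 3: PAP TRAP, the precipitate from synaptoneurosomes (PAP stands for peripheral astrocyte process); cortex TRAP, the precipitate of the cortex and hippocampus preparation; synaptoneurosome input, the same layer before precipitation; and cortex input, the starting material of the cortex TRAP. Synaptoneurosomes are a sucrose-gradient layer of pinched-off synapses with the processes around them. All 4 groups shared the tagged mice, cycloheximide at 1 ug/mL, which halts ribosomes on their messages, and TTX at 1 mM, a sodium channel blocker. The labels call every sample astrocytes, although the inputs were taken before precipitation, and they give all samples the same extract protocol. Whether libraries came from separate animals is not stated, so p-values measure the spread between these libraries, which may be technical.

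Gene counts per library ranged from 4918113 to 17553985, but genes of the nuclear genome gave only 1423296 to 2476076 counts in the synaptoneurosome inputs and 4864787 to 7777763 in the other groups. Mitochondrial genes took 35.6% to 47.6% of gene counts in PAP TRAP, 1.03% to 1.28% in cortex TRAP, 83.8% to 91.9% in synaptoneurosome input and 44.8% to 50.3% in cortex input. All 12 astrocyte markers had counts in every library, and together they made up 4.80% to 9.43% of nuclear counts in PAP TRAP, 6.91% to 10.1% in cortex TRAP, 3.996% to 4.81% in synaptoneurosome input and 0.788% to 0.878% in cortex input. Slc1a2 alone gave 85.0% to 85.9% of this sum in PAP TRAP, 54.8% to 68.5% in cortex TRAP, 89.1% to 90.0% in synaptoneurosome input and 76.1% to 81.0% in cortex input. The other 11 markers took 0.678% to 1.42% of nuclear counts in PAP TRAP and 2.81% to 3.46% in cortex TRAP. The 6 oligodendrocyte markers took 0.779% to 1.03% in PAP TRAP and 0.0581% to 0.0860% in cortex TRAP. The 8 neuron markers took 0.380% to 0.559% in PAP TRAP and 0.187% to 0.294% in cortex TRAP, where Snap25 alone gave 80.3% to 82.7% of their sum. The other 7 took 0.242% to 0.359% in PAP TRAP and 0.0358% to 0.0578% in cortex TRAP. Ependymal and choroid plexus markers took 0.00170% to 0.00779% in PAP TRAP and 0.0300% to 0.0914% in cortex TRAP. Most of this sum was Ttr, with 374, 239 and 94 counts in PAP TRAP and 6935, 3226 and 2033 in cortex TRAP. Of the 5 markers in this list 3 were tested, and 1 was called lower in PAP TRAP than in cortex TRAP. In bulk libraries such as these, fewer cells of a type and less RNA per cell cannot be told apart.

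Levels are given as normalized CPM (counts-per-million of gene counts) after TMM scaling, which sets 1 factor per library so that most genes are comparable. Changes are log2 differences of group means with their standard errors, from edgeR's quasi-likelihood test over all 12 libraries, and a gene was called at a Benjamini-Hochberg adjusted p of 0.05 over the 13364 genes tested. All 10 genes passed the filter on low counts.

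In PAP TRAP against cortex TRAP, 8 of the 10 genes were lower and none was higher, where 14.6% of all genes were called lower, 19.3% higher and 33.9% in either direction. The 8 lower genes were Cth, Cbs, Gclc, Gclm, Gpx4, Prdx6, Gstm1 and Gstm5. The median change of the 10 genes was -1.64 on the log2 scale, against -0.28 over all genes tested. In the same 8 genes the 3 PAP TRAP libraries all lay below the 3 cortex TRAP libraries, whereas 48.4% of all genes had groups that did not overlap. The astrocyte markers moved the same way: 11 of 12, all but Slc1a2, were called lower, and the median change was -1.43. Glul and Aldoc gave most of the summed counts of those 11 markers in every library. Scaled to this sum, a scaling added after seeing the data, 2 of the 10 genes were called lower (Cth and Prdx6). The calls of Cbs, Gclc, Gclm, Gpx4, Gstm1 and Gstm5 were lost. That scaling moved the median of all genes by 1.47 and called 40.2% of all genes in either direction, against 33.9% under TMM. Of the genes called, 97.4% were then higher, against 56.9% under TMM. Of other cell types, 7 of 8 neuron markers, 6 of 7 microglia markers and 4 of 6 oligodendrocyte markers were called higher, with medians of 2.68, 3.37 and 3.19, and their part in the result was not tested.

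In PAP TRAP against synaptoneurosome input, 4 of the 10 genes were higher (Cbs, Prdx6, Gstm1 and Gstm5) and none was lower, where 3.0% of all genes were called higher, 1.53% lower and 4.53% in either direction. Without PAP TRAP replicate 2 or synaptoneurosome input replicate 3, only 2 of the 4 calls held. The PAP TRAP libraries stood apart from their input in the same 4 genes, above it, and in Gpx4, below it, whereas 21.6% of all genes had groups that did not overlap. The median change of the 10 genes was 0.93 and that of all genes 0.06. Of all genes called, 66.3% were higher, and 79.1% were higher when mitochondrial genes were left out before scaling. In cortex TRAP against cortex input, 7 of the 10 were higher (Cth, Cbs, Slc7a11, Gclm, Prdx6, Gstm1 and Gstm5) and none was lower, where 15.9% of all genes were called higher, 19.5% lower and 35.4% in either direction. These 7, Gclc and Gpx4 stood above cortex input in every cortex TRAP library, and 55.2% of all genes had groups that did not overlap. The median was 3.38, against 0.05 over all genes, and the 12 astrocyte markers, all of them higher, had a median of 4.15.

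Between the inputs fewer of the 10 genes were called. In synaptoneurosome input against cortex input, Slc7a11 and Gstm1 were the 2 of 10 called higher, where 7.26% of all genes were called higher, 2.07% lower and 9.32% in either direction. Only 1 of these 2 calls held when any cortex input library, or synaptoneurosome input replicate 1 or 2, was left out. Without synaptoneurosome input replicate 2, Gclc was called lower (-1.57, adjusted p = 0.0242). Of all genes, 36.5% had groups that did not overlap. In this comparison 9 of the 12 astrocyte markers were higher with a median of 1.66. The difference between the enrichments, PAP TRAP over its input minus cortex TRAP over its input, was called lower for 5 of the 10 (Cbs, Slc7a11, Prdx6, Gstm1 and Gstm5), where 7.32% of all genes were called lower, 12.9% higher and 20.2% in either direction. All 12 astrocyte markers were called lower on this measure. These comparisons share libraries, so their values are given side by side and do not back each other.

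**Figure D1:**
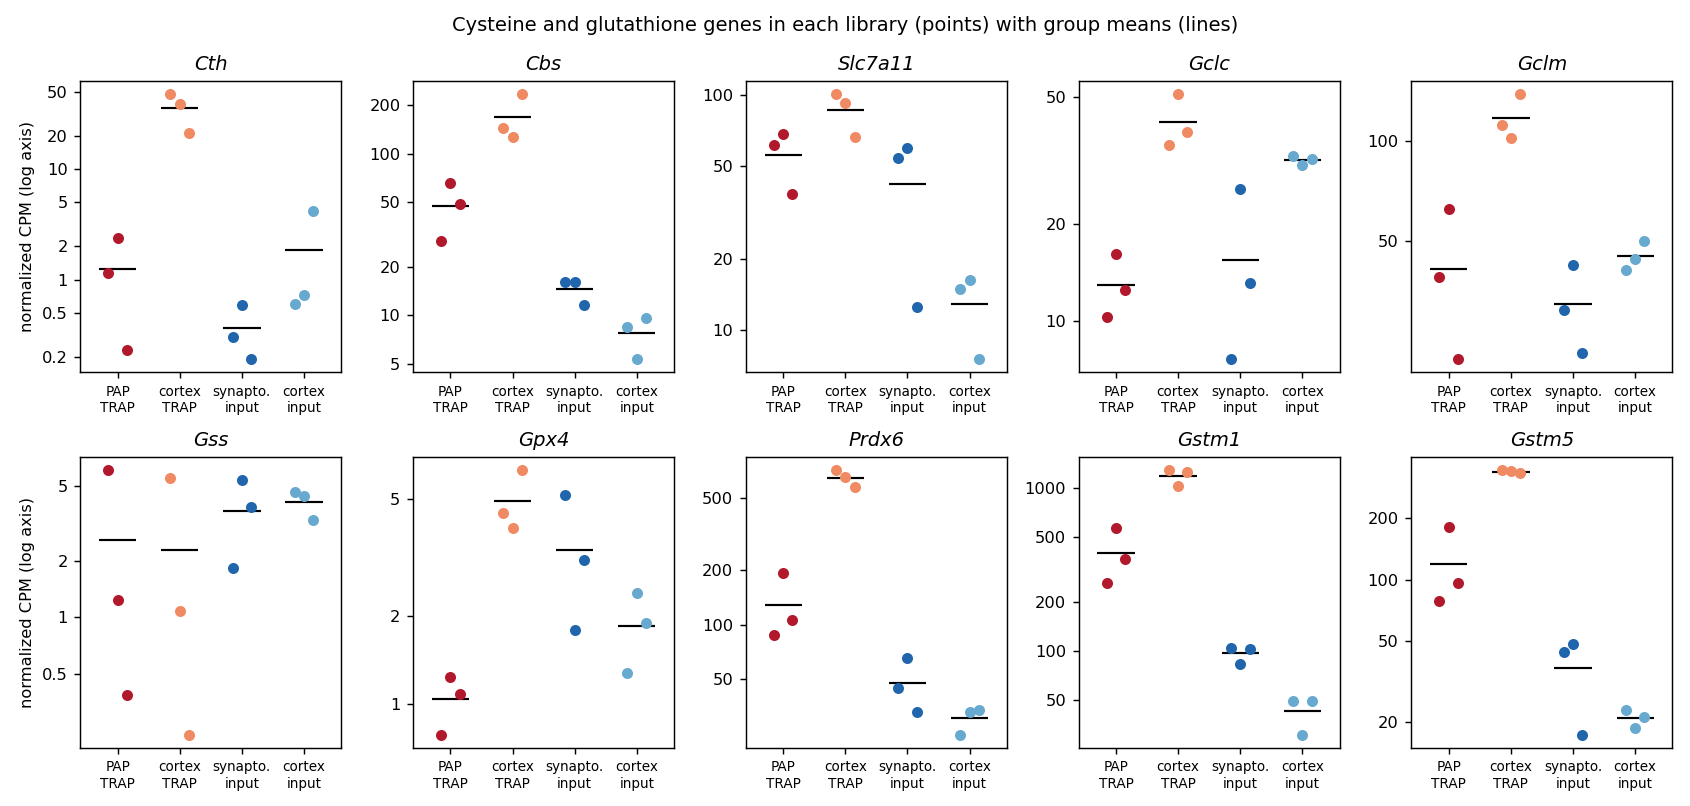
Normalized CPM (log axis) of each of the 10 genes in each library, with PAP TRAP first, then cortex TRAP, synaptoneurosome input and cortex input; points are the 3 libraries of a group and lines their mean. Gstm1, Prdx6, Gstm5 and Cbs stand highest in cortex TRAP, with PAP TRAP between cortex TRAP and both inputs, while Gss overlaps across the groups.

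**Figure D2:**
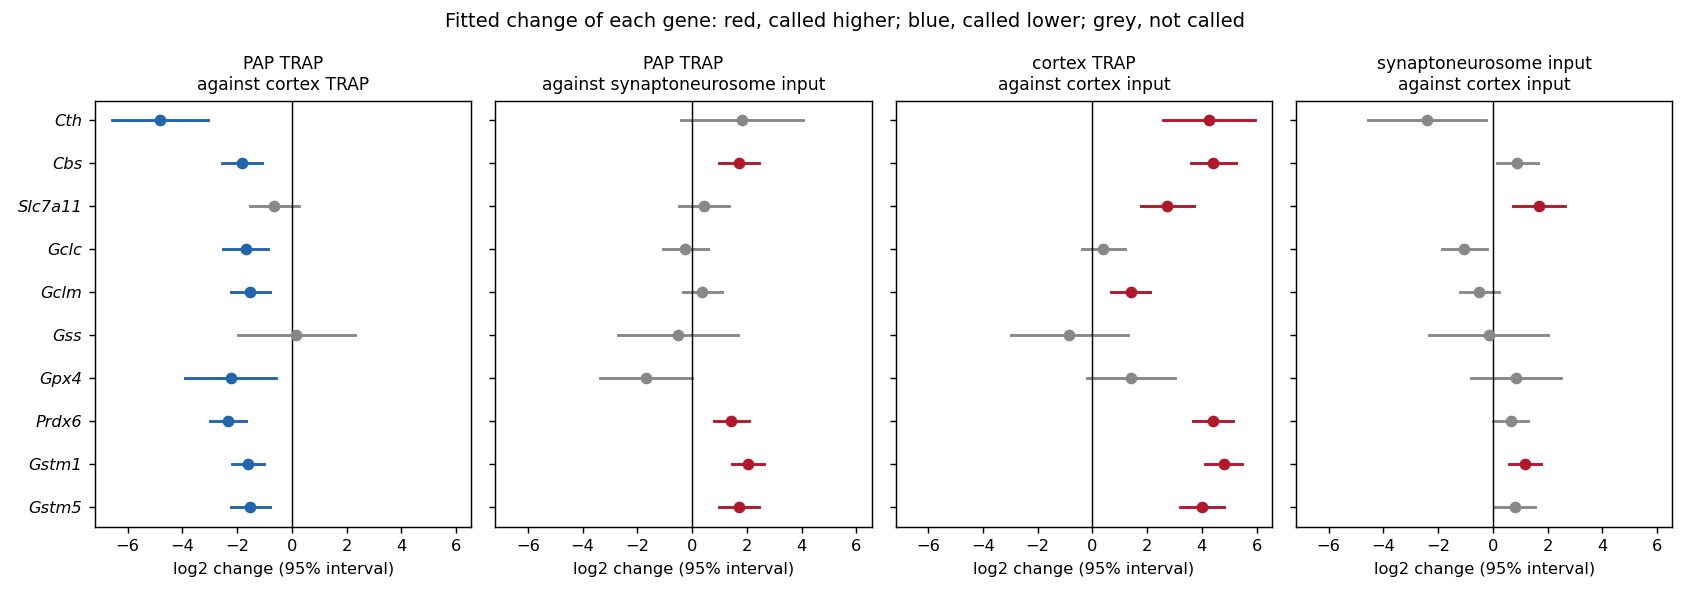
Log2 change of each gene (point) with its 95% interval (line) in the 4 comparisons between groups; red is called higher, blue called lower and grey not called. In PAP TRAP against cortex TRAP all genes but Gss lie below 0, from -0.63 for Slc7a11 to -4.82 for Cth.

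Cbs makes cystathionine from homocysteine and serine, and Cth splits cystathionine into cysteine, so together they carry transsulfuration. Cth (ENSMUSG00000028179) lies at chr3:157894248-157925077 on the minus strand of GRCm38. Its level was 1.14, 2.40 and 0.233 CPM in PAP TRAP, from 13, 29 and 3 counts, against 47.4, 38.6 and 21.2 CPM in cortex TRAP, from 837, 465 and 355 counts. Synaptoneurosome input had 1, 2 and 1 counts of Cth, and cortex input had 0.609, 0.731 and 4.22 CPM. Cth was thus plentiful in the cortex TRAP libraries and scarce elsewhere, with no overlap between PAP TRAP and cortex TRAP. The change was -4.82 ± 0.83 in PAP TRAP against cortex TRAP (adjusted p = 0.000174), which is 28.3-fold lower with a 95% interval of 8.45 to 94.7. It was the greatest fall among the 10 genes and moved to -5.70 without PAP TRAP replicate 2 and to -4.19 without PAP TRAP replicate 3. In cortex TRAP against cortex input the change was 4.26 ± 0.80 (adjusted p = 0.000322), and 5.58 without cortex input replicate 3, the highest library of that group. With 1 or 2 counts per synaptoneurosome input library, the change against that input had a standard error of 1.06 and was not called (1.83, adjusted p = 0.354).

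Cbs (ENSMUSG00000024039) lies at chr17:31608894-31637238 on the minus strand. It had 29.0, 65.5 and 48.8 CPM in PAP TRAP and 144, 127 and 234 CPM in cortex TRAP. Both inputs were lower, with 16.1, 16.1 and 11.6 CPM in synaptoneurosome input and 8.42, 5.38 and 9.66 CPM in cortex input. Each precipitate stood above its own input without overlap, and PAP TRAP stood below cortex TRAP. The changes were -1.82 ± 0.34 in PAP TRAP against cortex TRAP (adjusted p = 0.000434), 1.72 ± 0.36 in PAP TRAP against synaptoneurosome input (adjusted p = 0.0101) and 4.42 ± 0.39 in cortex TRAP against cortex input (adjusted p = 4.72e-08). The call against synaptoneurosome input was lost without synaptoneurosome input replicate 3 (adjusted p = 0.0553). The difference of enrichments was -2.71 ± 0.49 (adjusted p = 0.000574). Unlike Cth, Cbs kept a mean of 47.8 ± 18.3 CPM (SD, n = 3) in PAP TRAP, against 168 ± 57.5 CPM in cortex TRAP.

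Slc7a11 is the light chain of the cystine/glutamate exchanger, which brings cystine in and lets glutamate out. The gene (ENSMUSG00000027737) lies at chr3:49892526-50443614 on the minus strand. Its levels were 61.3, 68.3 and 37.9 CPM in PAP TRAP, 101, 92.3 and 66.6 CPM in cortex TRAP, 53.8, 59.4 and 12.6 CPM in synaptoneurosome input, and 14.95, 16.4 and 7.52 CPM in cortex input. PAP TRAP overlapped with both cortex TRAP and synaptoneurosome input, and cortex input lay below both precipitates. The change was -0.63 ± 0.43 in PAP TRAP against cortex TRAP (adjusted p = 0.270), with a 95% interval from -1.54 to 0.27, so a difference in either direction could not be resolved. Against synaptoneurosome input it was 0.42 ± 0.44 (adjusted p = 0.656). In cortex TRAP against cortex input Slc7a11 was higher by 2.74 ± 0.46 (adjusted p = 0.000106). Synaptoneurosome input also exceeded cortex input by 1.69 ± 0.45 (adjusted p = 0.0234), although the libraries overlapped, and that call was lost without any of 4 libraries (adjusted p from 0.0662 to 0.122), namely cortex input replicates 1 and 3 and synaptoneurosome input replicates 1 and 2. The difference of enrichments was -2.32 ± 0.62 (adjusted p = 0.0118) and lost its call without cortex input replicate 3 (adjusted p = 0.0522). Slc3a2, the heavy chain that carries Slc7a11 to the membrane, had 46.0, 56.2 and 56.8 CPM in PAP TRAP and 84.1, 81.1 and 115 CPM in cortex TRAP.

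Glutathione synthesis starts with glutamate-cysteine ligase, made of the catalytic subunit Gclc and the modifier subunit Gclm, and ends with Gss, which adds glycine. Gclc (ENSMUSG00000032350; chr9:77754535-77794485, plus strand) had 10.3, 16.1 and 12.4 CPM in PAP TRAP, 35.5, 50.9 and 38.8 CPM in cortex TRAP, 7.60, 25.7 and 13.1 CPM in synaptoneurosome input, and 32.6, 30.5 and 32.0 CPM in cortex input. Cortex TRAP and cortex input were close, and the synaptoneurosome groups lay below both without overlap. PAP TRAP differed from cortex TRAP by -1.69 ± 0.39 (adjusted p = 0.00257) and differed from its own input by -0.25 ± 0.39 (adjusted p = 0.784). The 3 cortex TRAP libraries all exceeded cortex input, but the change of 0.40 ± 0.38 was not called (adjusted p = 0.453; 95% interval of the fold, 0.759 to 2.28). Synaptoneurosome input against cortex input gave -1.04 ± 0.39 (adjusted p = 0.107), and -1.57 without synaptoneurosome input replicate 2, which was called (adjusted p = 0.0242).

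Gclm (ENSMUSG00000028124; chr3:122245557-122270732, plus strand) had 39.0, 62.6 and 21.99 CPM in PAP TRAP, 112, 102 and 139 CPM in cortex TRAP, 31.0, 42.4 and 23.0 CPM in synaptoneurosome input, and 40.8, 44.0 and 49.9 CPM in cortex input. Only cortex TRAP stood apart. It exceeded cortex input by 1.39 ± 0.34 (adjusted p = 0.00314), while PAP TRAP differed from cortex TRAP by -1.52 ± 0.34 (adjusted p = 0.00205) and differed from synaptoneurosome input by 0.36 ± 0.34 (adjusted p = 0.614). Both subunits were thus lower in PAP TRAP than in cortex TRAP. Gclm was called over cortex input and Gclc was not, but the difference between the subunits was not tested. The exons of Gclm overlap those of Gm17494 on the opposite strand by 296 bases and those of the pseudogene Gm6061 on the same strand by 244 bases, and the strand setting of the counting is not given in the sources used here.

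Gss (ENSMUSG00000027610; chr2:155563181-155592810, minus strand) was scarce. It had 69, 15 and 5 counts in PAP TRAP, 97, 13 and 4 in cortex TRAP, 6, 18 and 20 in synaptoneurosome input and 84, 66 and 54 in cortex input. In CPM these were 6.06, 1.24 and 0.389 in PAP TRAP and 5.49, 1.08 and 0.239 in cortex TRAP, a spread of over an order of magnitude inside each group. Replicate 1 was high in both precipitates. No comparison of Gss was called, and the change of 0.16 ± 1.02 in PAP TRAP against cortex TRAP had a 95% interval of the fold from 0.254 to 4.94. Its exons overlap Acss2 by 395 bases and the antisense genes Gssos2 and Gssos1 by 385 and 322 bases, all on the opposite strand, so its counts are uncertain.

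Gclm is a textbook target of Nfe2l2, a transcription factor that binds the antioxidant response element as a partner of small Maf proteins. The core TGACNNNGC was searched on both strands in RefSeq promoter windows (GRCm38.p6) of 300 bases, 250 before and 50 after each start. Windows were found for 7 of the 10 genes, 11 in all, and 2 of the 11, those of Gclm and Gstm5, held the core, against 12.4% of all 32851 windows. The stretches around both matches are shown because they are the only members' windows with the core, and capitals mark the match. The Gclm stretch is chr3:122245388-122245467, plus strand, with the core on the minus strand 134 to 126 bases before the RefSeq start. The Gstm5 stretch is chr3:107895741-107895820, plus strand, with the core on the plus strand 42 to 34 bases before it. A match to these letters is a description of the sequence and not evidence of binding.
Gclm: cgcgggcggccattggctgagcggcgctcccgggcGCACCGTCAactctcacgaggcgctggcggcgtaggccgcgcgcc
Gstm5: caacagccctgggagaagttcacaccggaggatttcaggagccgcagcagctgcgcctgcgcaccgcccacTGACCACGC

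Gpx4 and Prdx6 both use glutathione to reduce hydroperoxides of membrane lipids, Gpx4 as a selenoprotein and Prdx6 as a peroxiredoxin with phospholipase activity as well. Gpx4 (ENSMUSG00000075706; chr10:80047166-80056439, plus strand) gave few counts, with 9, 15 and 14 in PAP TRAP, 79, 48 and 105 in cortex TRAP, 17, 6 and 16 in synaptoneurosome input and 23, 36 and 31 in cortex input. In CPM it had 0.790, 1.24 and 1.09 in PAP TRAP, 4.48, 3.98 and 6.28 in cortex TRAP, 5.17, 1.79 and 3.09 in synaptoneurosome input and 1.27, 2.39 and 1.90 in cortex input. The PAP TRAP libraries lay below all other libraries. The change was -2.23 ± 0.79 in PAP TRAP against cortex TRAP (adjusted p = 0.0367), a call that was lost without any 1 of the 6 libraries (adjusted p from 0.0559 to 0.135). It was also lost with no filter on low counts (adjusted p = 0.114) and in the other settings given under the dependence on processing. Against synaptoneurosome input the change was -1.68 ± 0.80 (adjusted p = 0.249), the reverse sign of Prdx6. Of the 50-base runs of Gpx4 transcripts, 34.7% also occur in 2 other annotated genes, and reads aligned to several places were kept apart from gene counts, so its level is uncertain.

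Prdx6 (ENSMUSG00000026701; chr1:161240112-161251219, minus strand) was among the well-covered genes, with 147 to 12592 counts in each library. It had 87.2, 193 and 105 CPM in PAP TRAP, 713, 649 and 572 CPM in cortex TRAP, 44.7, 65.7 and 32.8 CPM in synaptoneurosome input and 24.7, 32.7 and 33.6 CPM in cortex input. No PAP TRAP library overlapped with either group it was compared with. Prdx6 was 5.02-fold lower in PAP TRAP than in cortex TRAP (95% interval, 3.18 to 7.92; -2.33 ± 0.31, adjusted p = 1.12e-05), which was the fall with the smallest p among the 10. It was higher in PAP TRAP than in synaptoneurosome input by 1.43 ± 0.31 (adjusted p = 0.0125), a call that was lost without synaptoneurosome input replicate 1 or 3 or PAP TRAP replicate 2 (adjusted p of 0.0567, 0.0648 and 0.0636). In cortex TRAP it was 21.2-fold higher than in cortex input (4.41 ± 0.35, adjusted p = 1.63e-08), and the difference of enrichments was -2.98 ± 0.44 (adjusted p = 7.13e-05).

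Gstm1 and Gstm5 are mu-class glutathione S-transferases, which join glutathione to electrophilic compounds. Gstm1 (ENSMUSG00000058135; chr3:108012255-108017973, minus strand) had 260, 565 and 367 CPM in PAP TRAP, 1290, 1028 and 1258 CPM in cortex TRAP, 104, 83.0 and 103 CPM in synaptoneurosome input, and 49.1, 30.7 and 49.3 CPM in cortex input. No groups overlapped, and cortex TRAP was highest, followed by PAP TRAP, synaptoneurosome input and cortex input. Gstm1 in PAP TRAP differed from cortex TRAP by -1.59 ± 0.28 (adjusted p = 0.000211). It was 4.11-fold higher in PAP TRAP than in synaptoneurosome input (95% interval, 2.72 to 6.21; adjusted p = 0.000605) and 27.7-fold higher in cortex TRAP than in cortex input (95% interval, 17.4 to 44.0; adjusted p = 3.64e-09). Synaptoneurosome input exceeded cortex input by 1.17 ± 0.28 (adjusted p = 0.0114), a call lost without cortex input replicate 2 (adjusted p = 0.0869).

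Gstm5 (ENSMUSG00000004032; chr3:107895821-107898686, plus strand) had the same order of group means. It had 78.6, 181 and 96.5 CPM in PAP TRAP, 346, 341 and 332 CPM in cortex TRAP, 44.4, 48.4 and 17.4 CPM in synaptoneurosome input, and 23.0, 18.7 and 21.3 CPM in cortex input. PAP TRAP stood clear of cortex TRAP and of synaptoneurosome input, whereas the inputs overlapped, since synaptoneurosome input replicate 3 was the lowest library of all. The changes were -1.52 ± 0.35 in PAP TRAP against cortex TRAP (adjusted p = 0.00223), 1.70 ± 0.35 against synaptoneurosome input (adjusted p = 0.0101; 0.0519 without PAP TRAP replicate 2) and 4.02 ± 0.38 in cortex TRAP against cortex input (adjusted p = 1.33e-07). Without synaptoneurosome input replicate 3 the inputs differed by 1.17, which was called (adjusted p = 0.0287), against 0.80 ± 0.35 with all libraries (adjusted p = 0.165). Of 50-base runs, 18.9% of those of Gstm1 and 9.44% of those of Gstm5 also occur in other annotated genes. The related Gstm2, Gstm3, Gstm4, Gstm6 and Gstm7 had at most 193 counts in any library, and Prdx6b, the retrogene copy of Prdx6, at most 14. Gstm5 exons overlap the antisense gene 4933431E20Rik by 178 bases.

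Per kilobase of exon, the levels in PAP TRAP were 270 ± 105 CPM per kb for Gstm1, 93.0 ± 43.0 for Gstm5 and 26.7 ± 11.8 for Prdx6 (SD, n = 3 each). Gclm, Cbs, Slc7a11 and Gclc followed at 6.55 ± 3.25, 6.38 ± 2.45, 4.01 ± 1.14 and 3.44 ± 0.79 CPM per kb, neighbours that did not differ beyond their spread. Gpx4, Cth and Gss closed the order at 0.603 ± 0.133, 0.450 ± 0.389 and 0.433 ± 0.517. In cortex TRAP the per-kb levels of Gstm1, Gstm5 and Prdx6 were 809 ± 97.1, 266 ± 5.37 and 134 ± 14.8, and there Cth, at 12.8 ± 4.78, stood between Gclm at 18.7 ± 3.02 and Gclc at 11.1 ± 2.16. Cth and Gclc did not differ beyond their spread in cortex TRAP.

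PAP TRAP replicate 2 was the highest library of its group for 9 of the 10 genes and also held the largest astrocyte marker share of that group, at 9.43% against 4.80% and 6.27% in replicates 1 and 3. Setting each gene against summed astrocyte marker counts, a scale chosen after seeing the data, gave a second view of the levels, which depends on Slc1a2, the main part of the sum of 12 markers. Without Slc1a2 the sum depends mainly on Glul and on Aldoc, the gene closest to Gstm1 in pattern. Gstm1 had 11.1, 12.1 and 11.1 counts per 1000 counts of the 12 markers in PAP TRAP, against 42.4, 28.5 and 30.1 in cortex TRAP. Over the 11 markers without Slc1a2 it had 78.2, 80.2 and 76.4 per 1000 in PAP TRAP, against 93.9, 90.6 and 88.0 in cortex TRAP. The PAP TRAP libraries lay below cortex TRAP on both scales, by far less on the second.

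Prdx6 had 26.2, 27.4 and 21.9 per 1000 counts of the 11 markers in PAP TRAP, against 51.9, 57.2 and 40.0 in cortex TRAP. Cth had 0.343, 0.340 and 0.0485 in PAP TRAP, against 3.45, 3.40 and 1.48 in cortex TRAP. Gstm5 had 23.6, 25.8 and 20.1 in PAP TRAP, against 25.2, 30.1 and 23.3 in cortex TRAP. Gstm5 thus overlapped between the precipitates on this scale, and Cth and Prdx6 did not.

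Over the 12 markers, 8 of the 10 genes lay below cortex TRAP in every PAP TRAP library, and Slc7a11 and Gss overlapped. Over the 11 markers, 5 lay below (Cth, Cbs, Gpx4, Prdx6 and Gstm1), and the other 5 overlapped. The share of all genes without overlap was not computed on either scale, so these counts have no background beside them. A fit scaled to the 12 markers called 7 of the 10 in PAP TRAP against cortex TRAP, with Gpx4 no longer called (adjusted p = 0.0686). That fit called 29.7% of all genes, and 65.7% of those called were higher. With scaling to the 11 markers these shares were 40.2% and 97.4%. The fit scaled to the 11 called Cth (-3.51 ± 1.00, adjusted p = 0.00775) and Prdx6 (-0.98 ± 0.34, adjusted p = 0.0260), and gave -0.43 ± 0.40 for Cbs, -0.21 ± 0.31 for Gstm1 and -0.18 ± 0.37 for Gstm5, none of them called (adjusted p of 0.432, 0.629 and 0.750).

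Against the inputs the scales also differed. Over the 12 markers, Cbs, Gstm1 and Gstm5 lay above synaptoneurosome input in PAP TRAP and Gpx4 below it; over the 11 markers, Cbs and Gstm1 lay above and Gclc, Gclm and Gpx4 below. In cortex TRAP against cortex input, Cbs, Prdx6 and Gstm1 lay above over the 12 markers, and Gstm1 alone over the 11. Below cortex input lay Gclc, Gclm, Gss and Gpx4 over the 12 markers, and these 4, Slc7a11 and Gstm5 over the 11. The share of all genes that lay apart from an input on these scales was not computed. Gclc had 3.26 ± 1.06 per 1000 counts of the 11 markers in cortex TRAP and 50.8 ± 2.95 in cortex input. Gclm had 8.96 ± 0.775 in cortex TRAP and 71.98 ± 8.503 in cortex input (SD, n = 3 each).

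**Figure D3:**
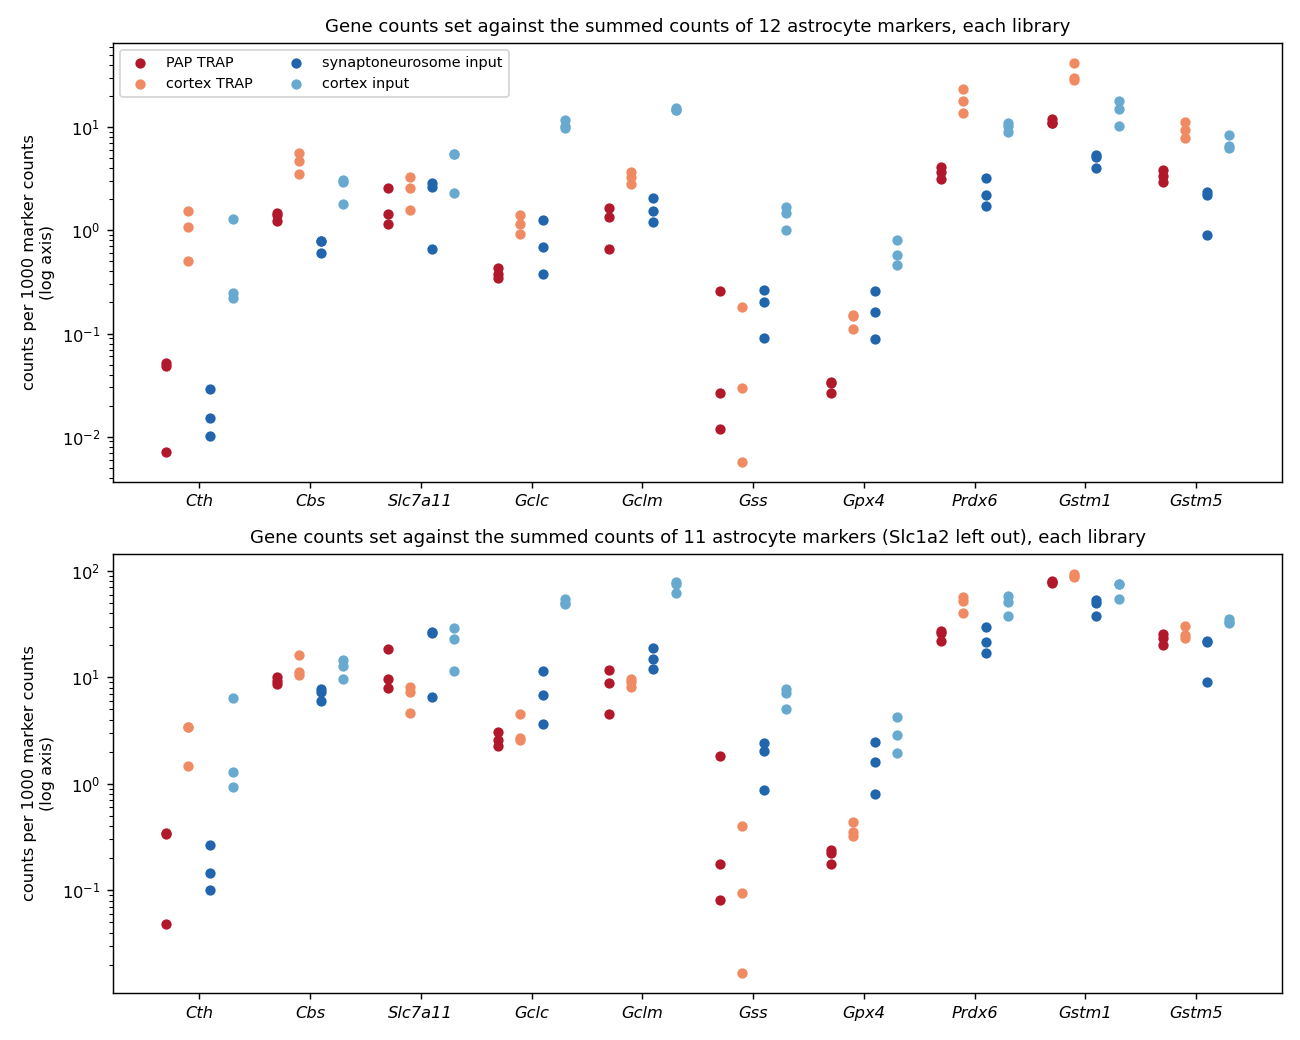
Counts of each gene per 1000 summed counts of 12 astrocyte markers (top) and of the 11 without Slc1a2 (bottom), on log axes, by library and group, with PAP TRAP first. The PAP TRAP libraries lie below all cortex TRAP libraries in 8 of the 10 genes on the top scale and in 5 on the bottom scale. The share of all genes without overlap was not computed on these scales. Gclc, Gclm and Gss are highest in cortex input on both.

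Plotted against each other, the enrichments over input separate the genes further. Gstm1 was 2.04 ± 0.29 higher over input in PAP TRAP and 4.79 ± 0.32 in cortex TRAP, a difference of -2.75 ± 0.39 (adjusted p = 5.49e-05), and Gstm5 differed by -2.31 ± 0.49 (adjusted p = 0.00209). Gclm differed by -1.03 ± 0.48 (adjusted p = 0.144; 0.0255 and called without PAP TRAP replicate 2). Gpx4 differed by -3.08 ± 1.11 (adjusted p = 0.0570) and was called with DESeq2 (adjusted p = 0.00652), with GC-corrected offsets (adjusted p = 0.0317) and without synaptoneurosome input replicate 2 (adjusted p = 0.0464). Cth, Gclc and Gss were not called.

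**Figure D4:**
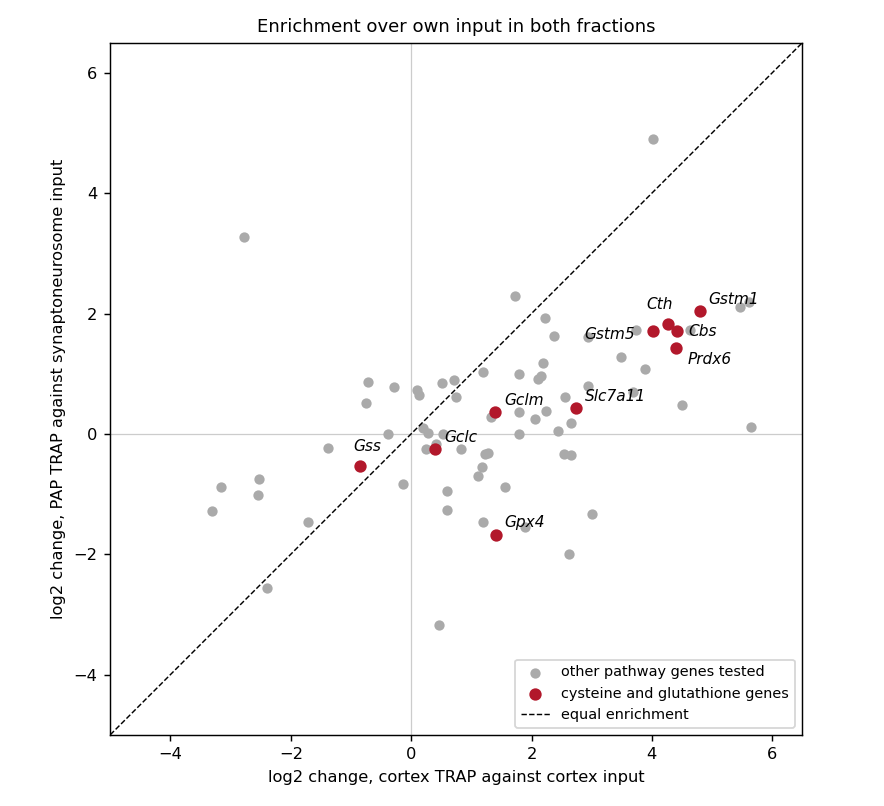
Log2 enrichment over input in PAP TRAP (vertical axis) and in cortex TRAP (horizontal axis) for each of the 10 genes (red, named) and the 66 other pathway genes tested (grey), with a dashed line of equal enrichment. Gstm1, Cbs, Prdx6 and Gstm5 lie between 1.43 and 2.04 in PAP TRAP and between 4.02 and 4.79 in cortex TRAP.

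Across the 12 libraries, Cbs, Prdx6, Gstm1 and Gstm5 varied together, with Pearson r of log2 CPM between 0.955 and 0.987 over their 6 pairs. Cth went most closely with Gclm (r = 0.944). Between Gclc and Slc7a11 r was 0.002, and Gss had r from -0.599 to -0.031 with the other 9. Among the tested genes with mean log2 CPM of at least 3, the closest to Cbs was Mt1, a metallothionein (r = 0.995), and the closest to Gstm1 was Aldoc, a brain aldolase of astrocytes (r = 0.992). Gstm5 was closest to Gnai2 (r = 0.992), Prdx6 to Rab31 (r = 0.991), Cth to Sri (r = 0.961), Gclm to Zfp36l1 (r = 0.951), Slc7a11 to Rhoq (r = 0.947) and Gclc to Dynll1 (r = 0.943). Gss and Gpx4 had weaker best matches, Fsd1l (r = 0.877) and Selenok (r = 0.853). The 12 points share 4 groups, depth and preparation, so these values describe likeness of pattern only.

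The wider pathway, listed from textbook knowledge and not by how genes moved, held 81 further genes, of which 66 were tested. Of the 66, 22 were lower in PAP TRAP than in cortex TRAP and 6 were higher, with a median change of -1.13, where 14.6% of all genes were lower and 19.3% higher. Thiol reduction, the thioredoxin, glutaredoxin and related genes, had 8 of 13 lower and none higher. Of the other peroxidases and peroxiredoxins 4 of 9 were lower, and of the other S-transferases 2 of 12, with none higher in either list; the share of 2 in 12 is close to that of all genes. In glutathione breakdown and export 3 of 11 were higher and 1 was lower.

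The genes of the wider pathway with the smallest p were led by Slc1a1, a glutamate and cysteine transporter known mainly from neurons. It had 60.8, 58.8 and 110 CPM in PAP TRAP against 2.61, 8.54 and 6.75 CPM in cortex TRAP (3.69 ± 0.45, adjusted p = 3.60e-06). Of the 8 neuron markers 7 were higher in PAP TRAP too, with a median of 2.68 and changes from 0.10 to 4.11, and their part was not tested. Abcc5, an efflux pump, was higher by 2.18 ± 0.45 (adjusted p = 0.00106; 2.87 without cortex TRAP replicate 2). Nfe2l1, a transcription factor related to Nfe2l2, was higher by 1.29 ± 0.27 (adjusted p = 0.00127). Atf4, a stress-response transcription factor that acts on amino acid metabolism, had 10.97, 27.5 and 27.8 CPM in PAP TRAP against 152, 173 and 181 CPM in cortex TRAP (-2.93 ± 0.37, adjusted p = 4.72e-06). Tst, a mitochondrial sulfurtransferase, was lower too, with a change of -2.27 ± 0.33 (adjusted p = 2.30e-05), as was Mat2a, which makes S-adenosylmethionine, with -2.45 ± 0.39 (adjusted p = 7.09e-05; -1.76 without cortex TRAP replicate 1). Scaled to the 11 astrocyte markers, Tst and Mat2a were not called (adjusted p of 0.0709 and 0.0744). With the members included, 15 of the wider pathway genes were then called in either direction, against 36. Of all genes 40.2% were called under that scaling, against 33.9%, and 97.4% of those called were higher.

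Many genes of the wider pathway were enriched over input in the cortex preparation, and 1 in the synaptoneurosome layer. In cortex TRAP against cortex input, 25 of the 66 genes were higher and 5 lower, with a median of 1.31. Of all genes, 15.9% were higher and 19.5% lower, with a median of 0.05. Tst led with 314, 333 and 257 CPM in cortex TRAP against 6.42, 6.85 and 5.14 CPM in cortex input, which is 49.0-fold higher (adjusted p = 4.12e-09). Nfe2l2 was 14.8-fold higher (3.88 ± 0.42, adjusted p = 6.98e-07). Lap3, an aminopeptidase that splits cysteinylglycine, was higher by 3.49 ± 0.40 (adjusted p = 1.44e-06). The 3 lower genes with the smallest p were Slc1a1 with a change of -3.17 ± 0.44, Abcc5 with -2.54 ± 0.46 (-3.24 without cortex TRAP replicate 2) and Ggt7, of the gamma-glutamyltransferase family, with -2.53 ± 0.72 (-3.15 without cortex TRAP replicate 1), with adjusted p of 1.39e-05, 0.000207 and 0.00913.

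In PAP TRAP against synaptoneurosome input, Tst was the 1 of 66 called, at 39.8, 94.7 and 52.3 CPM in PAP TRAP against 10.03, 11.4 and 18.9 CPM in synaptoneurosome input (2.20 ± 0.34, adjusted p = 0.00108), where 4.53% of all genes were called. Between the inputs, 5 of 66 were higher in the synaptoneurosome layer and 2 lower, close to the 7.26% and 2.07% of all genes. Slc1a1, Tst and Slc3a2 were higher by 1.40 ± 0.41, 1.14 ± 0.34 and 1.04 ± 0.31, and Mat2b, the regulatory partner of Mat2a, and Gstz1, a zeta-class transferase, were lower, with changes of -1.42 ± 0.40 and -1.90 ± 0.58. The adjusted p of these 5 lay between 0.0316 and 0.0448, and each lost its call without any of the 3 cortex input libraries and without synaptoneurosome input replicate 3. The difference of enrichments was called lower for 14 of the 66 and higher for 2, with a median of -1.19. Of all genes, 7.32% were lower and 12.9% higher on this measure.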

How the data were processed

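The deposited files hold raw read counts per gene: whole numbers with differing totals, to which the authors had applied no normalization as far as the values show. cDNA was amplified by SPIA, per the labels' protocols. The submitters' processing notes name HTSeq, STAR, Bowtie2 and Trimmomatic 0.32 without stating what each did. The build, the annotation and the strand setting of the counting are not stated in the notes used here. Rows that name no gene, 20.3% to 55.5% of all counts per library, stayed out. Of 41388 identifiers, 40254 were given symbols, positions (GRCm38) and lengths from GENCODE M21.

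Groups came from the sample titles and source names, with 3 libraries each. No libraries of a group agreed within sampling noise (chi-square per degree of freedom from 18.5 to 92.0). Genes were filtered by filterByExpr (minimum count 10, minimum total 15), which left 13364, and all 12 libraries were fitted with 1 mean per group by TMM-scaled edgeR 4.0.16 under R 4.3.3. The quasi-likelihood test was used, with Benjamini-Hochberg adjustment over all genes tested and calls at 0.05. Intervals are 95% intervals from the fit. Counts without molecular identifiers are not independent molecules.

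The members, gene lists, markers and tests were chosen with earlier results of these data known. Named genes were all 10 members, up to 3 higher and 3 lower genes per comparison from the wider lists by smallest p, and 1 gene of most similar pattern per member. Alternatives were RLE scaling, no filter, mitochondrial genes left out, GC-corrected offsets, the replicate block with and without these, thinned counts, the compared groups alone, DESeq2 1.42.0 and each library left out. Scaling to the summed counts of 12 astrocyte markers, and of the 11 other than Slc1a2, was added after seeing the data. The fitting step was tested on simulated counts.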

Additional observations from a re-analysis of the deposited data

Results flagged for a closer look

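For 5 of the 10 genes the enrichment over input differed between the fractions by a test of the difference itself, in the fit of all 12 libraries with edgeR's quasi-likelihood method. The log2 enrichment of PAP TRAP over synaptoneurosome input minus that of cortex TRAP over cortex input was -2.71 for Cbs, -2.32 for Slc7a11, -2.98 for Prdx6, -2.75 for Gstm1 and -2.31 for Gstm5. All 5 were less enriched in the synaptoneurosome layer, as were all 12 astrocyte markers, whose median difference was -3.14 and whose part in the result was not tested.

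Of the wider pathway, Tst, Nfe2l2 and Prdx1 differed in the same direction, by -3.42 ± 0.47 (adjusted p = 3.46e-05), -2.80 ± 0.55 (adjusted p = 0.00121) and -2.15 ± 0.47 (adjusted p = 0.00290). Nfe2l2 had 41.6, 39.6 and 16.3 CPM in PAP TRAP and 106, 126 and 112 CPM in cortex TRAP. Prdx1, a thioredoxin-dependent peroxidase, had 21.2, 57.9 and 29.1 CPM in PAP TRAP and 133, 144 and 120 CPM in cortex TRAP. Slc1a1 differed in the other direction, by 2.29 ± 0.58 (adjusted p = 0.00831): it was depleted in cortex TRAP, and its change of -0.88 ± 0.41 in PAP TRAP against synaptoneurosome input was not called (adjusted p = 0.233).

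Chac1, an enzyme that breaks down glutathione in the cytosol, differed by 6.06 ± 1.96 (adjusted p = 0.0346). It had 8, 11 and 40 counts in PAP TRAP, 6, 0 and 13 in cortex TRAP, 0, 0 and 2 in synaptoneurosome input and 71, 30 and 34 in cortex input, so the fitted value depends on how zero counts are treated. It moved between 5.23 and 10.1 as libraries were left out and to 7.03 under the replicate block, and its call was lost without any of PAP TRAP replicate 3, cortex TRAP replicate 1, cortex input replicate 1, or synaptoneurosome input replicate 1 or replicate 2.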

How the results depend on the processing

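Over the 10 genes and 5 comparisons, 441 of 460 values under settings other than leaving out a library kept their direction and side of the threshold, and so did 330 of 360 values with 1 library left out. The counts of members called were 8, 4, 7, 2 and 5 in PAP TRAP against cortex TRAP, PAP TRAP against synaptoneurosome input, cortex TRAP against cortex input, the inputs, and the difference of enrichments. With 1 library left out they ranged from 7 to 7, 2 to 4, 7 to 7, 1 to 3 and 4 to 6. The counts of wider pathway genes called, members included, were 36, 5, 37, 9 and 21, and ranged from 25 to 35, 3 to 7, 32 to 36, 1 to 7 and 14 to 23. In PAP TRAP against synaptoneurosome input this count was 8 with mitochondrial genes left out and 9 with DESeq2, and the cause was not tested. Without synaptoneurosome input replicate 3 or PAP TRAP replicate 2, the members called there fell to 2.

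Several uncalled values changed sign. The change of Gss between the inputs, -0.156 with all libraries, was 0.063 with GC-corrected offsets, 0.071 under the replicate block and 0.273 under both. With 1 library left out, Gss ranged from -0.488 to 0.187 between the inputs, from -1.477 to 2.086 in PAP TRAP against cortex TRAP and from -1.321 to 2.249 in the difference of enrichments. In PAP TRAP against synaptoneurosome input, Slc7a11 ranged from -0.026 to 0.757, Gclc from -0.582 to 0.297 and Gclm from -0.072 to 0.662. The cause was not tested.

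The call of Gpx4 in PAP TRAP against cortex TRAP was also lost with mitochondrial genes left out (adjusted p = 0.0507), under the replicate block (0.0562), with thinned counts (0.0643) and with the compared groups alone (0.0830). Cbs between the inputs was called with DESeq2 only (adjusted p = 0.0495). The share of all genes called was 33.9% in PAP TRAP against cortex TRAP and 18.6% without the low-count filter; 4.53% in PAP TRAP against synaptoneurosome input, 2.27% with GC correction, 2.87% with block and GC correction, and 10.7% with DESeq2; 35.4% in cortex TRAP against cortex input and 19.6% without the filter; 9.32% between the inputs, 5.73% without the filter, 16.1% with these groups alone and 17.7% with DESeq2; and 20.2% for the difference of enrichments and 11.7% without the filter. With 1 library left out it ranged from 2.13% to 3.98% in PAP TRAP against synaptoneurosome input and from 4.65% to 8.08% between the inputs.

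Leaving out mitochondrial genes moved the median of all genes by 0.143, 0.127 and 0.117 in PAP TRAP against cortex TRAP, PAP TRAP against synaptoneurosome input and the difference of enrichments. The scaling to astrocyte markers, chosen after seeing the data, moved it by 0.128 and called 27 pathway genes in PAP TRAP against cortex TRAP, where 29.7% of all genes were called. The same scaling without Slc1a2, also added after seeing the data, moved the median by 1.47. It called 2 members and 15 pathway genes there, where 40.2% of all genes were called and 97.4% of those were higher. Slc7a11 then had a change of 0.838 (adjusted p = 0.215), the reverse sign. Same-numbered deviations correlated weakly, at -0.048 to 0.135. In cortex TRAP against cortex input (0.053 to 0.091) and between the inputs (0.067 to 0.135), every library correlated best with its own number. In PAP TRAP against cortex TRAP (-0.048 to 0.114) and against synaptoneurosome input (0.029 to 0.134), not every library did. Whether the replicate numbers pair the libraries is thus not settled, and the main fit did not use them. Under the replicate block 7, 4, 7, 2 and 5 members were called in the order above. Depth limits Cth outside cortex TRAP, Gss and Gpx4, where some libraries gave 20 counts or fewer.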

Other observations

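Gstp1 and Gstp2, pi-class transferases chosen here after their values were seen, had 0 counts in all 12 libraries. Of the 50-base runs of their transcripts, 33.7% and 54.3% also occur in other annotated genes, and reads aligned to several places were kept apart from gene counts. Gpx4, with 34.7% of its runs shared, had counts in every library. Why Gstp1 and Gstp2 had none was not tested, and a count of 0 is not taken as a level for them.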
